A study of Mus musculus with 7 samples.

Results

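Lipid droplet proteins were examined as a group of 10 genes, Fitm1, Fitm2, Plin2, Plin4, Plin5, Cidea, Cideb, Cidec, G0s2 and Pnpla2, in livers of Trpm6-deficient and control mice. Each gene was read by the 1 probe set that the platform annotation assigned to its symbol alone, so the group comprised 10 of 35556 probe sets, or 10 of the 19938 gene symbols that had a probe set of their own. The probe sets were to be chosen by brightness, which decided nothing because each gene had 1, and the genes were chosen from their roles in droplets. They were also chosen with earlier results of these arrays in view, including the log2 values of both genotypes, so the comparison of the leading gene, Fitm1, between genotypes is given as a description. Trpm6 encodes a channel kinase that is required for Mg2+ uptake. The 3 Trpm6-deficient mice carried 2 Trpm6 alleles with a deleted exon together with a Sox2-Cre transgene, and were aged 13, 12 and 13 weeks in the order of their numbers. The 4 control littermates carried 1 floxed and 1 wild-type Trpm6 allele without the transgene, and were aged 12, 12, 13 and 13 weeks. All mice were male and on the C57BL/6 background, and RNA of the left liver lobe of each was hybridised to 1 whole-transcript array. Sox2-Cre recombines in the epiblast, from which all tissues of the embryo proper derive, so the liver was one of many organs that lost the gene. Since no control mouse carried Sox2-Cre, the deletion and the transgene cannot be told apart.

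Hepatocytes store triglyceride and sterol esters in lipid droplets, which bud from the endoplasmic reticulum and consist of a neutral lipid core under a single layer of phospholipids. FITM proteins of the endoplasmic reticulum bind triglyceride and promote the budding, perilipins coat the surface and control the access of lipases, and CIDE proteins move lipid from smaller to larger droplets where droplets touch. The lipase encoded by Pnpla2 takes the first fatty acid off the stored triglyceride, and the protein encoded by G0s2 inhibits it.

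Among the 10 genes, Fitm1 had by far the largest difference between genotypes and the other 9 differed by less than 0.25 log2 units. None passed limma's test at a Benjamini-Hochberg adjusted p of 0.1 or less, the threshold of the study, which 46 of the 35556 probe sets passed (0.129%). At an unadjusted p up to 0.05 2 of the 10, Fitm1 and Fitm2, were lower and 0 were higher in Trpm6-deficient livers. Over all 21789 probe sets with 1 gene symbol, 3.36% were lower and 3.59% were higher at this threshold. The median log2 change of the 10 genes was -0.04, against -0.005 over all probe sets with 1 symbol, with 4 genes above 0 and 6 below. Every Trpm6-deficient liver lay below every control in 1 gene, Fitm1, and above them in 0 genes. Of all probe sets with 1 symbol, 2.74% were apart in the lower direction and 2.77% in the higher one. The choice of the group was not independent of these values, and nothing is read from the counts.

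**Figure D1:**
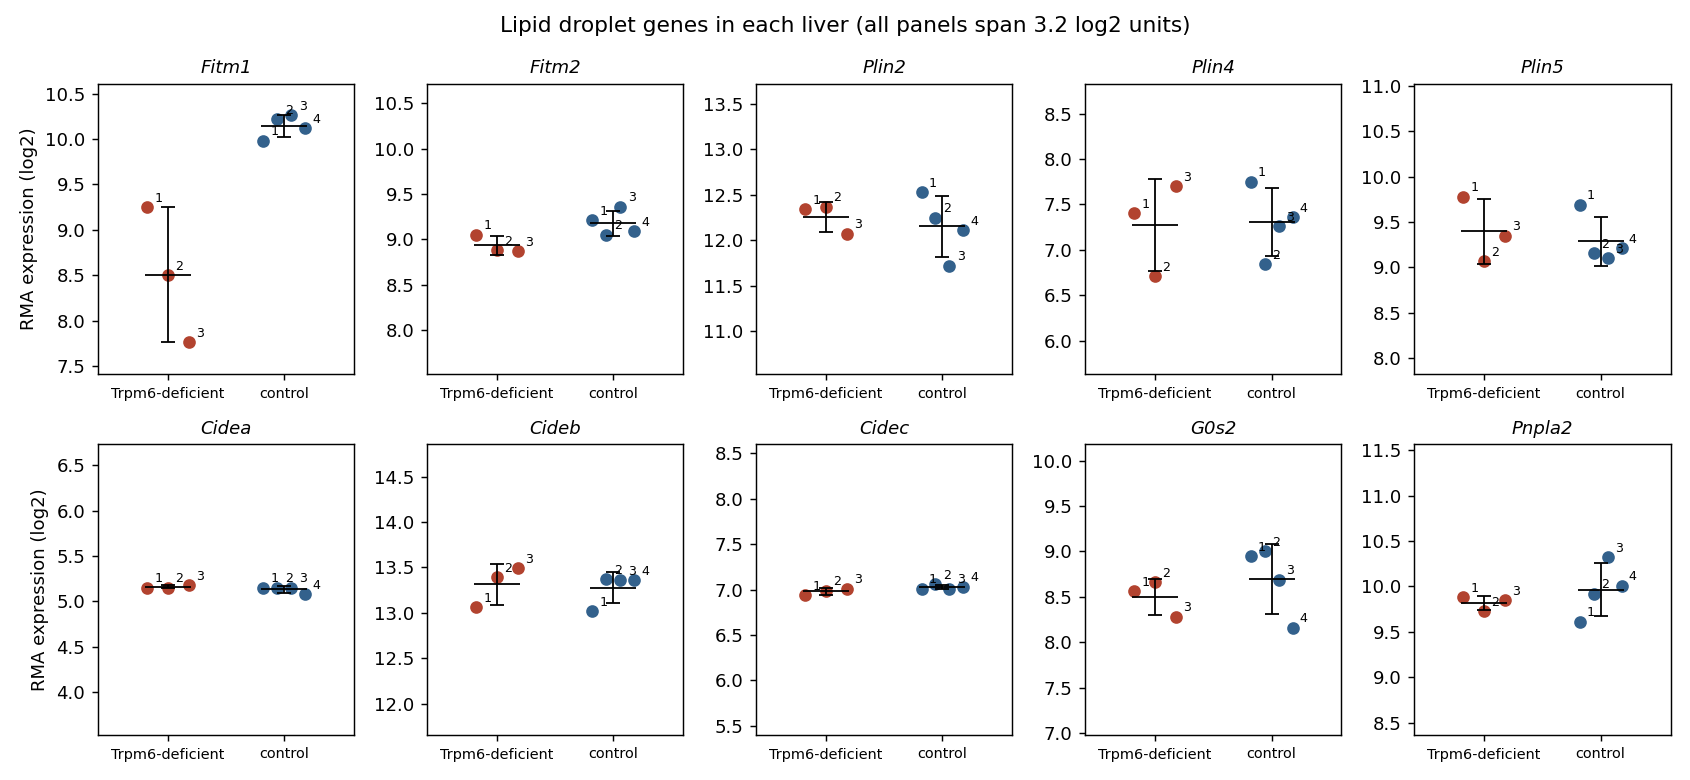
RMA expression values (log2) of the 10 lipid droplet genes, with 1 numbered point per liver (Trpm6-deficient, n = 3; control, n = 4), a line at the group mean and whiskers of 1 SD. Fitm1 is the one gene in which all 3 Trpm6-deficient livers lie below all 4 controls.

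Fitm1 and Fitm2 encode the FITM pair of the endoplasmic reticulum. In mouse, Fitm1 is known chiefly from skeletal muscle and Fitm2 from adipose tissue. The Fitm1 gene lies on chromosome 14 and Fitm2 on chromosome 2. Their upstream sequences are printed because these 2 genes gave the results at an unadjusted p up to 0.05. Each line gives the 250 bases before the gene's start from RefSeq (GRCm38.p6), read 5′ to 3′ on the strand of the gene, chr14:55575424-55575673 on the plus strand for Fitm1 and chr2:163472630-163472879 on the minus strand for Fitm2. Capitals mark the E-box CANNTG, the letters that basic helix-loop-helix factors recognise.
Fitm1: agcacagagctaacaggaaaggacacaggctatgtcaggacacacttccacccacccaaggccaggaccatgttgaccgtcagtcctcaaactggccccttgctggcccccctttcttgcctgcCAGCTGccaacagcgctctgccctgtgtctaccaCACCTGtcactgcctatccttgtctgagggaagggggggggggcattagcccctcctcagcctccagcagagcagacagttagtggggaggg
Fitm2: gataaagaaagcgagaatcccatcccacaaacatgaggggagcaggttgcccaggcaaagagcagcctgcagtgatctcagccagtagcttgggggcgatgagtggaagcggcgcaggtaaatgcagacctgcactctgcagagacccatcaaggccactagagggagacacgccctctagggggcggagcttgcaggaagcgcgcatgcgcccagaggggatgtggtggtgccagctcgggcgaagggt
The Fitm1 stretch held 2 E-box matches and the Fitm2 stretch held 0.

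The E-box is a common match, found on either strand in 23756 of 32851 mouse promoters (72.3%) when 250 bases before and 50 bases after the start were searched. Promoters of 9 of the 10 genes were searched, and Cidea was left out. They were 11 in all because Plin5 and Cidec have 2 each, and 8 of the 11 held the E-box. The direct repeat of AGGTCA with 1 base between its copies, to which PPAR and RXR receptors bind as a pair, was in 0 of the 11 promoters, and in 13 of all 32851 (0.0396%). The same repeat of the looser AGGNCA, which contains the strict one, was also in 0 of the 11, and in 125 of all promoters (0.381%). The CCAAT box was found for Plin2, Plin4 and Plin5 and in 37.4% of all promoters, and the TATA box TATAAA for Cideb and in 13.6% of all promoters. These matches describe letters in a short window and were not tested for binding.

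Fitm1 had log2 values of 9.25, 8.50 and 7.76 in the 3 Trpm6-deficient livers, against 9.98, 10.22, 10.26 and 10.12 in the 4 control livers. All Trpm6-deficient livers lay below the lowest control, Trpm6-deficient 1 nearest to it and Trpm6-deficient 3 farthest. The Trpm6-deficient values spanned 1.49 log2 units and the control values 0.28. Fitm1 averaged 8.50 ± 0.75 in Trpm6-deficient livers and 10.15 ± 0.12 in control livers (SD, n = 3 and n = 4), a log2 change of -1.64 (standard error 0.33, 95% interval -2.42 to -0.86). On the linear scale this is 0.320 of the control level, with a 95% interval of 0.186 to 0.552. Limma gave an adjusted p of 0.322 over all probe sets. Without Trpm6-deficient 1, the liver nearest to the controls, the log2 change was -2.02 and the adjusted p from limma 0.0927. In the other 13 alternative fits the adjusted p from limma was 0.227 to 0.663. The exact two-sided permutation p was 0.0571, the smallest that 35 splits of 7 arrays allow, so this test cannot pass 0.05. In bulk RNA, fewer cells that express a gene and less RNA per cell cannot be told apart.

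All 7 values of Fitm1 lay above the medians of the arrays (6.43 to 6.48), and its within-group SD of 0.48 was above that of 93.3% of probe sets. Markers of skeletal muscle, the tissue for which Fitm1 is known, lay near the array medians in both genotypes. The 8 muscle markers averaged 6.37, 6.37 and 6.40 in Trpm6-deficient livers and 6.41, 6.29, 6.42 and 6.38 in control livers, with every single value between 5.11 and 7.78. The mean level of these markers overlapped between genotypes, and 0 of the 8 had an unadjusted p up to 0.05.

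Fitm2 had log2 values of 9.05, 8.88 and 8.87 in Trpm6-deficient livers, against 9.21, 9.05, 9.36 and 9.09 in control livers. Trpm6-deficient 2 and 3 lay below every control, and Trpm6-deficient 1 was level with control 2. The means were 8.93 ± 0.10 in Trpm6-deficient livers and 9.18 ± 0.14 in control livers (SD, n = 3 and n = 4). The log2 change was -0.24 (standard error 0.09, 95% interval -0.47 to -0.02, adjusted p = 0.685 from limma), or 0.844 of the control level. The exact two-sided permutation p was 0.114. The unadjusted p of Fitm2 stayed at 0.05 or less in 8 of 14 alternative fits, and that of Fitm1 in all 14. These fits share the same mice and are not independent of each other.

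The FITM pair was also compared within each liver, a comparison chosen after the values had been seen. Fitm1 minus Fitm2 was 0.20, -0.38 and -1.11 log2 units in Trpm6-deficient livers, against 0.77, 1.17, 0.90 and 1.03 in control livers. Every Trpm6-deficient liver was below every control in this difference. The group means of the difference were -1.4 log2 units apart, Trpm6-deficient minus control. The exact two-sided permutation p of the difference was 0.0571, the smallest that this test allows. Since Fitm1 was already known to be apart between genotypes, this difference is a description, and nothing is read from that p. The 2 values come from different probe sets, so the size of the difference within a liver says nothing about which transcript was more abundant.

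The genes next to the FITM genes on their chromosomes, also chosen after the values had been seen, were within 0.17 log2 units of no change. Among measured genes in the RefSeq order Fitm1 lies between Dcaf11, a ubiquitin ligase adaptor gene with a log2 change of -0.10 (adjusted p = 0.903 from limma), and Psme1, a proteasome activator gene with a log2 change of 0.17 (adjusted p = 0.815 from limma). Fitm2 lies between Gdap1l1, with a log2 change of 0.08, and R3hdml, with a log2 change of 0.05. None of the 4 reached an unadjusted p of 0.05.

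**Figure D2:**
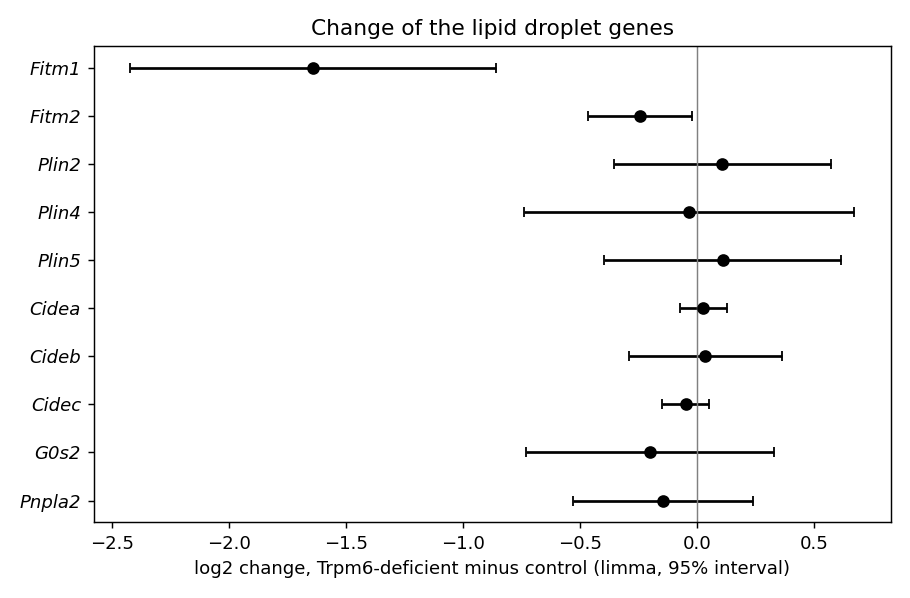
Log2 change of each lipid droplet gene, Trpm6-deficient minus control, with the 95% interval from limma (Trpm6-deficient, n = 3; control, n = 4). The intervals of Fitm1 and Fitm2 lie below 0, and those of the other 8 genes include 0.

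The perilipin genes Plin2, Plin4 and Plin5 had overlapping values in the 2 genotypes. Plin2 encodes the coat protein that hepatocyte droplets carry most widely, and had log2 values of 12.34, 12.37 and 12.07 in Trpm6-deficient livers, against 12.53, 12.25, 11.72 and 12.11 in control livers. The highest and the lowest of the 7 values were both from controls. Its log2 change was 0.11 (standard error 0.19, 95% interval -0.36 to 0.57, adjusted p = 0.943 from limma). Plin5 encodes the perilipin that ties droplets to mitochondria, and had 9.78, 9.07 and 9.35 in Trpm6-deficient livers, against 9.69, 9.16, 9.10 and 9.21 in control livers. Trpm6-deficient 1 and control 1 were the 2 highest of the 7. The log2 change of Plin5 was 0.11 (standard error 0.21, 95% interval -0.40 to 0.62, adjusted p = 0.949 from limma).

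Plin4 lies next to Plin5 on chromosome 17 and encodes a perilipin best known from white fat. It had 7.40, 6.71 and 7.70 in Trpm6-deficient livers, against 7.75, 6.84, 7.26 and 7.36 in control livers. Replicate 2 was the lowest liver of each genotype. The log2 change of Plin4 was -0.03 with a wide 95% interval of -0.74 to 0.67 (standard error 0.29, adjusted p = 0.995 from limma), and its within-group SD of 0.43 was above that of 91.5% of probe sets.

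The CIDE genes also had overlapping values in the 2 genotypes. Cideb encodes the family member of hepatocytes, which in mouse acts in the lipidation of very low density lipoprotein. It had log2 values of 13.06, 13.39 and 13.49 in Trpm6-deficient livers, against 13.02, 13.37, 13.36 and 13.36 in control livers. Replicate 1 was the lowest liver of each genotype, and the other 5 livers lay within 13.36 to 13.49. The log2 change was 0.04 (standard error 0.14, 95% interval -0.29 to 0.36, adjusted p = 0.979 from limma).

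Cidea and Cidec encode the CIDE proteins of brown and white fat, which fatty livers of mice are known to induce. Cidea had 5.15, 5.15 and 5.18 in Trpm6-deficient livers, against 5.15, 5.15, 5.15 and 5.08 in control livers, close to the lower quartile of the arrays, which lay between 5.05 and 5.11. Whether Cidea RNA was above background cannot be read from these values. Cidec had 6.94, 6.99 and 7.01 in Trpm6-deficient livers, against 7.01, 7.06, 7.01 and 7.03 in control livers. The log2 changes were 0.03 for Cidea (95% interval -0.07 to 0.13) and -0.05 for Cidec (95% interval -0.15 to 0.05), the narrowest intervals of the 10 genes. Limma gave adjusted p-values of 0.929 for Cidea and 0.877 for Cidec.

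The lipase gene and the gene of its inhibitor also overlapped between genotypes. Pnpla2 had log2 values of 9.88, 9.73 and 9.85 in Trpm6-deficient livers, against 9.61, 9.92, 10.32 and 10.01 in control livers. The Trpm6-deficient livers lay close together, inside the range of the controls, and the log2 change was -0.15 (standard error 0.16, 95% interval -0.53 to 0.24, adjusted p = 0.903 from limma). G0s2 had 8.56, 8.66 and 8.28 in Trpm6-deficient livers, against 8.95, 9.0, 8.69 and 8.16 in control livers. Control 4 was the lowest of the 7, and the Trpm6-deficient livers lay below the other 3 controls. The log2 change of G0s2 was -0.20 (standard error 0.22, 95% interval -0.73 to 0.33, adjusted p = 0.903 from limma). Without control 4 it was -0.38, with an unadjusted p under 0.05 and an adjusted p of 0.722 from limma.

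The mean difference of the 10 genes from the control mean was -0.08, -0.27 and -0.26 log2 units in Trpm6-deficient 1, 2 and 3, against 0.07, -0.02, 0.01 and -0.06 in control 1, 2, 3 and 4. In each Trpm6-deficient liver Fitm1 was the gene farthest from its control mean, and these averages include it.

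The genes whose profile over the 7 livers was most like that of Fitm1 were found by the root mean square difference between log2 values, after each gene had been centred on its own mean, among 21788 other probe sets with 1 symbol. The closest was Gm4956, at 0.238 log2 units. It had 7.59, 6.51 and 6.44 in Trpm6-deficient livers, against 7.97, 8.23, 8.29 and 8.36 in control livers. Aox3, an aldehyde oxidase gene, followed at 0.276, with 11.73, 11.43 and 10.73 in Trpm6-deficient livers, against 12.81, 12.53, 12.49 and 12.81 in control livers. Klhl24, which encodes a ubiquitin ligase adaptor, Nat8, an acetyltransferase gene, and Alas2, a haem synthesis gene of red cell precursors, came next at 0.285, 0.291 and 0.300. None of these 5 genes passed limma's test, with log2 changes of -1.66 to -1.15 and adjusted p-values of 0.119 for Nat8 to 0.655 for Klhl24. They were selected for their likeness to Fitm1, so their direction follows from the selection.

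**Figure D3:**
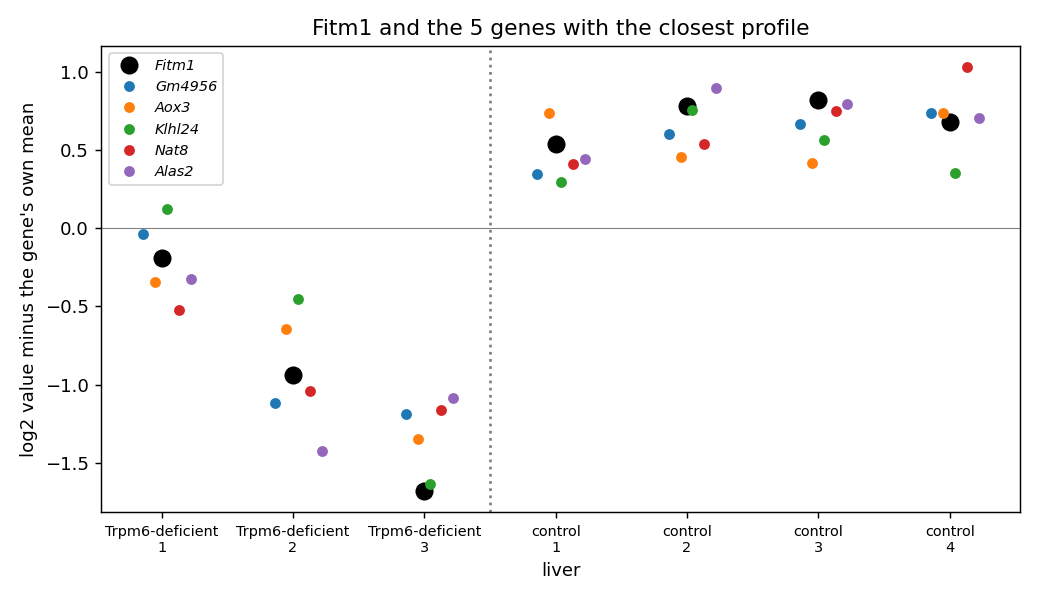
Log2 value minus the gene's own mean in each of the 7 livers (Trpm6-deficient, n = 3; control, n = 4) for Fitm1 (large black points) and the 5 genes closest to it. In all 6 genes every Trpm6-deficient liver lies below every control.

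Other genes of lipid droplets and of triglyceride handling were examined in 7 lists. Limma's adjusted test was passed by 1 of their 76 measured genes, and by 46 of all 35556 probe sets (0.129%). At an unadjusted p up to 0.05, 3.59% of all probe sets with 1 symbol were higher and 3.36% lower. The lists were chosen with earlier results known, and nothing is read from their counts.

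Of 19 listed droplet coat and biogenesis genes 15 were measured. None of them passed the adjusted test or reached an unadjusted p of 0.05, and their median log2 change was -0.01. Plin3, the perilipin gene expressed in most cell types, had 9.35, 9.45 and 9.41 in Trpm6-deficient livers, against 9.34, 9.31, 8.95 and 9.17 in control livers. The Trpm6-deficient values lay just above the highest control, and the log2 change was 0.21 (adjusted p = 0.791 from limma). Osbpl2, which encodes a sterol-binding protein found at droplets, had 9.01, 9.09 and 8.65 in Trpm6-deficient livers, against 9.03, 9.36, 9.65 and 9.22 in control livers. The groups overlapped for Osbpl2, at a log2 change of -0.40 (adjusted p = 0.754 from limma).

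Of 15 genes of triglyceride and sterol ester synthesis 13 were measured. None passed the adjusted test, 1 was higher and 0 were lower at an unadjusted p up to 0.05, and the median was -0.0025. The higher one was Gpat3, a glycerol phosphate acyltransferase gene of the endoplasmic reticulum, with a log2 change of 0.26 (adjusted p = 0.600 from limma). Dgat2, which encodes an enzyme of the last step to triglyceride, had a log2 change of 0.15 (adjusted p = 0.754 from limma).

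All 12 listed lipases and lipase cofactors were measured. None passed the adjusted test, 1 was higher and 2 were lower at an unadjusted p up to 0.05, and the median was -0.09. Pnpla3, the closest relative of Pnpla2 and a droplet protein of the liver, had 7.86, 8.06 and 8.21 in Trpm6-deficient livers, against 7.40, 7.62, 7.30 and 7.22 in control livers. The groups did not overlap, and the log2 change was 0.66 (adjusted p = 0.273 from limma, standard error 0.12). Abhd5, the coactivator gene of the Pnpla2 lipase, was singled out after its values had been seen. It had 9.34, 9.73 and 9.44 in Trpm6-deficient livers, against 9.96, 9.80, 9.86 and 9.73 in control livers, a log2 change of -0.33 (adjusted p = 0.624 from limma). Trpm6-deficient 2 was level with control 4. Ces3a, a carboxylesterase gene of the liver endoplasmic reticulum, had 13.15, 12.75 and 12.05 in Trpm6-deficient livers, against 13.53, 13.66, 13.47 and 13.56 in control livers, and its groups were apart in the lower direction (adjusted p = 0.514 from limma).

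All 8 listed genes of lipoprotein assembly were measured. None passed the adjusted test, 2 were higher and 1 was lower at an unadjusted p up to 0.05, and the median was -0.03. Tm6sf2, which encodes a membrane protein needed to load lipoproteins with triglyceride, had 11.87, 12.59 and 12.78 in Trpm6-deficient livers, against 11.01, 11.45, 11.37 and 11.72 in control livers. All Trpm6-deficient livers lay above the highest control, with a log2 change of 1.03 (adjusted p = 0.453 from limma). Mia2, a gene of lipoprotein export from the endoplasmic reticulum, had a log2 change of -0.28 (adjusted p = 0.389 from limma).

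Of 12 listed regulators of droplet genes 11 were measured. None passed the adjusted test, 2 were higher and 2 were lower at an unadjusted p up to 0.05, and the median was 0.08. Creb3l3, which encodes a liver transcription factor of fasting, had 10.41, 10.31 and 9.99 in Trpm6-deficient livers, against 10.79, 10.79, 10.80 and 10.79 in control livers. The controls were almost equal and every Trpm6-deficient liver lay below them, at a log2 change of -0.56 (adjusted p = 0.261 from limma). Ppargc1a, a coactivator gene of oxidative metabolism, had 9.84, 9.25 and 10.28 in Trpm6-deficient livers, against 8.91, 9.18, 8.49 and 8.81 in control livers. Its groups were apart in the higher direction (log2 change 0.94, adjusted p = 0.562 from limma).

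Of 13 listed genes that fasting induces through PPARA 11 were measured. None passed the adjusted test, and 5 were higher and 1 was lower at an unadjusted p up to 0.05. The median was 0.32, with 8 genes above 0 and 3 below. Cyp4a14, a fatty acid hydroxylase gene, had a log2 change of 2.88 (adjusted p = 0.415 from limma, standard error 0.67). It had 12.93, 13.42 and 13.24 in Trpm6-deficient livers, against widely spread values of 10.17, 12.0, 8.9 and 10.21 in control livers. Pdk4, which encodes a kinase that spares glucose, had 10.24, 10.10 and 9.89 in Trpm6-deficient livers, against 8.89, 8.56, 7.59 and 9.17 in control livers, and its groups were apart (log2 change 1.52, adjusted p = 0.429 from limma). Of 8 listed genes that PPARG induces in fatty liver 7 were measured, with 4 above 0 and 3 below. At an unadjusted p up to 0.05, 1 was higher and 1 was lower. The lipoprotein receptor gene Vldlr was the 1 that passed the adjusted test. Its log2 change was 1.71 (adjusted p = 0.0903 from limma, standard error 0.20). Fabp4, a fatty acid carrier gene of adipocytes in the same list, had a log2 change of -0.42 (adjusted p = 0.570 from limma), and the median of the list was 0.17.

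**Figure D4:**
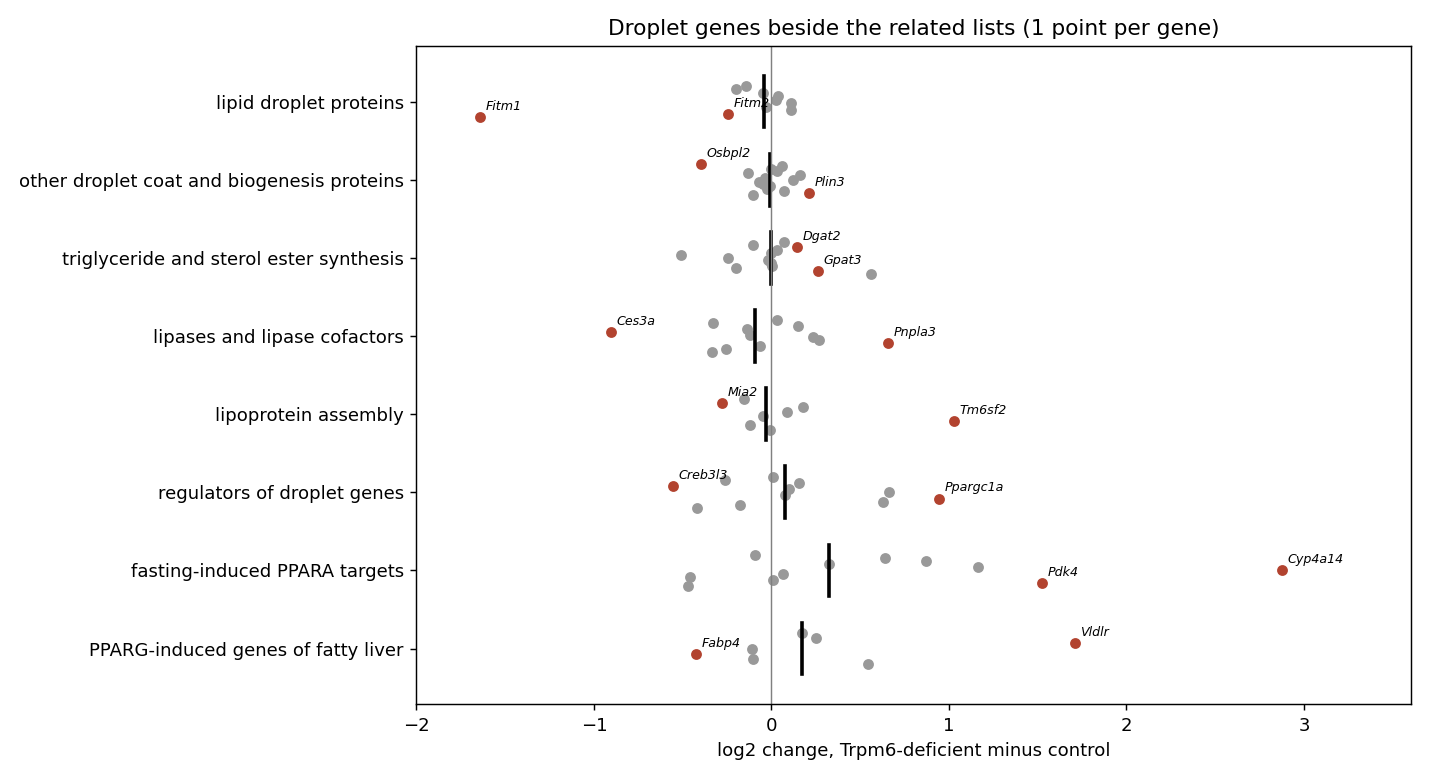
Log2 change, Trpm6-deficient minus control, of each measured gene of the lipid droplet group and of the 7 related lists, with 1 point per gene, the median of the list as a vertical bar, and in red the FITM genes and the genes that the naming rule of the methods gave for each list. Fitm1 lies at -1.64 while the other 9 droplet genes lie within 0.25 of 0, and Cyp4a14 lies highest, at 2.88.

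The 7 arrays had medians of 6.43 to 6.48. Trpm6 itself had 5.50, 5.37 and 5.50 in Trpm6-deficient livers, against 5.53, 5.51, 5.50 and 5.50 in control livers. Whether its probe set reads the deleted exon was not examined, so these values do not check the genotype. The 8 measured hepatocyte markers averaged between 13.58 and 13.73 on every array. The 9 measured adipocyte markers, which include Cidea of the droplet group, averaged 6.13 to 6.19 in Trpm6-deficient livers and 6.18 to 6.36 in control livers. At an unadjusted p up to 0.05, 1 of 9 was lower and 0 were higher. Over all probe sets with 1 symbol, 3.36% were lower at this threshold. The lower marker was Fabp4, with 7.68, 7.35 and 7.33 in Trpm6-deficient livers, all below the 7.73, 8.09, 7.88 and 7.81 in control livers. Adipoq, a defining marker singled out after its values had been seen, stayed between 4.40 and 4.67 on all 7 arrays. These values lie below the lower quartiles of the arrays (5.05 to 5.11), where a change could hardly be seen. Stellate cell markers averaged 8.87 to 9.17 in Trpm6-deficient livers and 8.73 to 8.95 in control livers, with 3 of 8 higher at an unadjusted p up to 0.05. Of all probe sets with 1 symbol, 3.59% were higher at this threshold. The log2 changes of the 8 stellate markers were mixed, from -0.21 to 1.39. Kupffer cell markers averaged 8.71 to 8.91 in Trpm6-deficient livers and 8.47 to 9.45 in control livers, with control 1 the lowest and 0 of 8 at that threshold. Of these 8 markers 7 had a log2 change below 0 and 1 above, with a median of -0.29. None of the marker genes passed the adjusted test, and the part of these cell types in the values of Fitm1 and Fitm2 was not tested.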

How the data were processed

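RNA of 7 livers was measured on Affymetrix Mouse Gene ST arrays, 1 per mouse. Per the submitters' processing notes the authors used Affymetrix Expression Console 1.4.0 and RMA, which corrects background, normalizes between arrays and summarizes probes, and they deposited log2 values with 2 decimals for 35556 probe sets. RMA narrows differences of dim probe sets. The columns were matched to mice by label, and 0 columns of other samples were left out. The genome build and the position of the probes are not given in the sources used here. The platform annotation gave 21789 probe sets 1 gene symbol, 1621 several and 12146 none.

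The deposited values were fitted with limma 3.58.1 (R 4.3.3) without a covariate or filter, and p-values were adjusted over the whole array by the Benjamini-Hochberg method. The fit was tested on simulated data. Exact permutation tests used scipy 1.17.1. The members and lists were chosen with earlier results of these data known. Named were the 10 members, Trpm6, the 2 genes of each list with the smallest p and any gene with an adjusted p of 0.1 or less, and the 5 genes most like the leading member. Alternatives left out each mouse in turn, added age or the replicate number, or changed the normalization, the filter, the prior or the array weights. Arrays give no sequencing depth, and their number limits the precision. Littermates were separate animals.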

Additional observations from a re-analysis of the deposited data

Results flagged for a closer look

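Of 36 named genes, 30 by the naming rule and 6 others, 5 had a control liver that stood apart from the other 3 by Dixon's test. The test flags about 1 in 20 groups of 4 by chance when values are continuous. These values are rounded, and for Cidea, Creb3l3 and Adipoq the other 3 controls were equal, so that any gap is flagged. The chance rate therefore need not hold here, and nothing is read from the count. Cidea was at 5.08 in control 4 and at 5.15 in each of the other controls. Cideb was at 13.02 in control 1 and at 13.36 to 13.37 in the others. Creb3l3 was at 10.80 in control 3 and at 10.79 in the others, a gap of the last decimal deposited. Adipoq was at 4.67 in control 3 and at 4.56 in the others. R3hdml was at 6.53 in control 3 and at 6.39 to 6.40 in the others.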

How the results depend on the processing

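The log2 change of Fitm1 kept its sign in all 14 alternatives and lay between -2.02 and -1.27 when 1 mouse was left out, with adjusted p-values of 0.0927 to 0.663 over all alternatives. It passed limma's test in 1 of them, without Trpm6-deficient 1 (-2.02, adjusted p = 0.0927). Fitm2 lay between -0.30 and -0.18 when 1 mouse was left out. G0s2 lay between -0.38 and -0.09, at -0.38 without control 4, where its unadjusted p was under 0.05. Leaving out 1 mouse turned the sign of 4 genes, Plin2 (-0.037 to 0.23), Plin4 (-0.25 to 0.25), Plin5 (-0.08 to 0.28) and Cideb (-0.053 to 0.16), none of which passed in any fit. The number of droplet genes lower at an unadjusted p up to 0.05 was 2, with 1 to 3 when 1 mouse was left out and 1 after a second quantile normalization.

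Of all probe sets 46 passed. This number was 7 to 69 when 1 mouse was left out, 8 with age as a covariate, 70 among probe sets averaging at least 5, and 14 at an adjusted p of 0.05 or less. Same-numbered livers had correlations of their deviations of 0.335, 0.26 and 0.0878, against -0.245 to 0.226 for livers of different numbers. Whether the numbers pair the mice was not tested further, and the main fit did not use them. With the replicate block 1 probe set passed, and Fitm1 had a log2 change of -1.65 (adjusted p = 0.439) and G0s2 one of -0.38 (adjusted p = 0.388), at an unadjusted p under 0.05. Only the controls have a replicate 4, so the block fit takes nothing from control 4 for the comparison of genotypes. Its log2 changes therefore equal those without control 4, -1.65 for Fitm1 and -0.38 for G0s2, and are no separate result. The cause of the other shifts was not tested. Other probe sets for the members could not be tried, since each has 1. The number of arrays and the lack of a background measure limit what dim genes such as Cidea can show.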
